A study of Mus musculus with 4 samples.

Results

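The genes described here encode the voltage-gated sodium and calcium channels of the mouse brain, measured in 4 brain regions at embryonic day 17.5. They were chosen by gene symbol alone: the sodium channel alpha and beta subunits (Scn followed by a number and a or b), the calcium channel alpha1 subunits (Cacna1), the alpha2delta subunits (Cacna2d1 to Cacna2d4) and the cytoplasmic calcium channel beta subunits (Cacnb1 to Cacnb4). The rule found 28 of 19938 genes, 11 of sodium channels and 17 of calcium channels. Scn4a and Cacnb3 were not analysed here.

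Tissue came from mice of the outbred ICR stock, with no genetic change or treatment given in the labels. Cerebellum from 13 mice, olfactory bulb from 14, pontine nucleus from 15 and superior colliculus from 16 were each pooled and hybridised to 1 Affymetrix array. There were no replicates, so no value has an SD, no difference has a p-value, and a region cannot be told apart from its single pooled preparation. Each value is a log2 signal, in which 1 unit is a 2-fold difference, and differences between regions are taken within a gene. Levels of different genes are set together in the level floor, a background percentile and the summed linear signals of marker lists. In such sums the genes with the highest signals weigh most. The number of arrays limits the precision.

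The comparisons cover the 10908 genes whose level on at least 1 array was above 8.56, the median over all genes and arrays. It was called higher or lower in a region when it lay at least 1 log2 unit outside the levels of all 3 other regions, and different in a pair of regions at a difference of at least 1 log2 unit. Array medians were 8.07 to 8.13. Each of the 4 lists of 7 regional marker genes had all 7 members highest in the region it marks, as in Hoxa2 at 12.41 in pontine nucleus against 6.85 to 7.71 elsewhere and Pax7 at 11.21 in superior colliculus against 7.86 to 8.59. The margin was smallest for the pontine marker Pax6, at 11.76 against 11.64 in cerebellum. The lists were chosen with earlier results of these data known, so they are no independent check of the dissections.

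Voltage-gated channels open when the membrane depolarises. A sodium channel alpha subunit forms the pore that carries the upstroke of the action potential, and beta subunits adjust its gating and its place in the membrane. A calcium channel alpha1 subunit forms a pore whose type sets its use: L-type channels couple activity to gene expression, P/Q-, N- and R-type channels trigger transmitter release, and T-type channels open near rest and shape firing. The alpha2delta and beta subunits bring calcium channels to the cell surface and tune them, and alpha2delta-1 and alpha2delta-2 bind the drug gabapentin.

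Of the 28 genes, 20 exceeded the level floor, 7 of sodium and 13 of calcium channels, and 17 did so on every array. Scn1a and Scn2b exceeded it on the superior colliculus array only, and Cacna2d3 on all arrays but the pontine one. The other 8 lay at or below the floor in every region. They were Scn7a (5.85 to 6.29), Scn10a (6.31 to 6.66), Scn4b (6.91 to 7.27), Cacna1f (6.94 to 7.07), Scn11a (7.05 to 7.43), Cacnb2 (7.19 to 7.30), Cacna1s (7.26 to 7.66) and Cacna2d4 (7.54 to 7.78). Scn10a and Scn11a are known from sensory neurons, Cacna1s from skeletal muscle, and Cacna1f and Cacna2d4 from the retina. Of the 8, 5 did not exceed 7.33 on any array, the 95th percentile of the levels of 203 genes not typical of brain (vomeronasal receptors and beta defensins). A low signal is no measure of absence, and each of the 8 was represented by a single probe set.

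**Figure D1:**
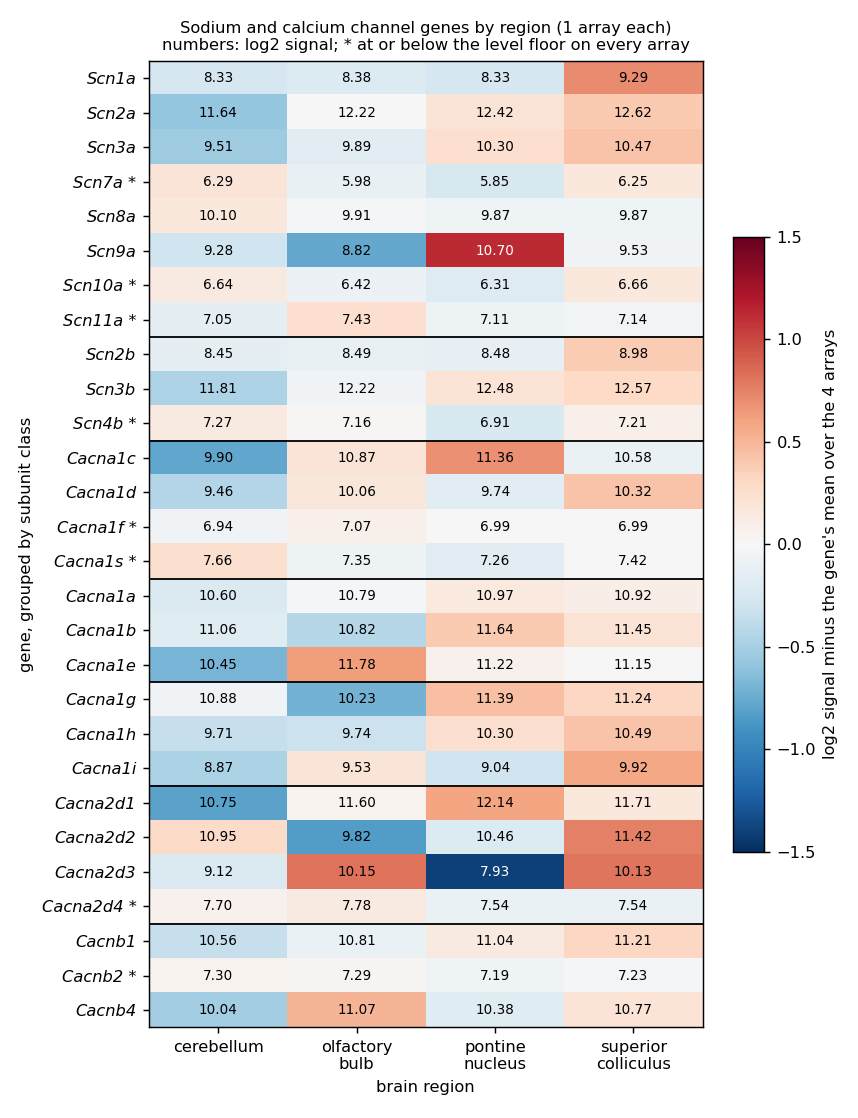
Each row is 1 of the 28 channel genes and each column 1 region with 1 array; numbers are log2 signals, and colour is the signal minus the gene's mean over the 4 arrays. The deepest colours are those of Cacna2d3, at 7.93 in pontine nucleus, and Scn9a, at 10.70 there; the 8 genes marked with an asterisk lay at or below the floor of 8.56 everywhere.

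The sequences upstream of 4 genes are shown first, because these genes varied widely across the regions: Scn9a, which was set apart as higher in the pontine nucleus, and the 3 alpha2delta genes above the floor, each of which was highest in a different region. For Cacna2d3 the bulb exceeded the colliculus by 0.02 only. Each run is the 250 bases before the transcript start, 5′ to 3′ on the gene's strand, from RefSeq on build GRCm38.p6. Capitals mark the GC box core GGGCGG, or CCGCCC where it lies on the other strand. The Scn9a window is chr2:66634963-66635212 on the minus strand, that of Cacna2d1 chr5:15934441-15934690 on the plus strand, that of Cacna2d2 chr9:107399630-107399879 on the plus strand, and that of Cacna2d3 chr14:29721865-29722114 on the minus strand.
Scn9a: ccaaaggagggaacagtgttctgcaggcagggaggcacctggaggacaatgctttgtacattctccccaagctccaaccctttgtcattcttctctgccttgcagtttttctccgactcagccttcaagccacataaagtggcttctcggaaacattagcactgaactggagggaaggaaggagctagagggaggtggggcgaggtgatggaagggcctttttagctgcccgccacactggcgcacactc
Cacna2d1: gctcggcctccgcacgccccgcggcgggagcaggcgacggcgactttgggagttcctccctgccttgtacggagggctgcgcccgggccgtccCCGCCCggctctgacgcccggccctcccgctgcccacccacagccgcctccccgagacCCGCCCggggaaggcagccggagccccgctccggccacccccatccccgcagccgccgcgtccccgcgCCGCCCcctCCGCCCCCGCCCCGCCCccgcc
Cacna2d2: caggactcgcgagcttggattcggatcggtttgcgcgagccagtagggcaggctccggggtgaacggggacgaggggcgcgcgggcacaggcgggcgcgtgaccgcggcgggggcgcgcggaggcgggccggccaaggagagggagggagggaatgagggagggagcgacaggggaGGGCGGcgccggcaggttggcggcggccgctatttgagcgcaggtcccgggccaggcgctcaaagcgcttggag
Cacna2d3: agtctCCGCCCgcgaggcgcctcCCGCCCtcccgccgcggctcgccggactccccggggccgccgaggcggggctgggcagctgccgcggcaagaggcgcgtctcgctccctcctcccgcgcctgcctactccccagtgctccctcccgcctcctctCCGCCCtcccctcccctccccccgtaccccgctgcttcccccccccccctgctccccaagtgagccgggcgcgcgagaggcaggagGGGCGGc

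The windows of Cacna2d1, Cacna2d2 and Cacna2d3 were 82.4%, 74.4% and 80.0% G and C with 36, 34 and 30 CpG dinucleotides, and that of Scn9a was 54.4% with 5. The median over 32851 such windows was 52.4%. The GC box core occurred on either strand in the 3 alpha2delta windows and not in that of Scn9a. It was present in 12 of 31 windows of the 22 channel genes with an entry, against 32.7% of all windows, which is near that share. Of the other letters searched on both strands, TATAAA was in 2 of the 31 windows (12.4% of all windows), CAGCTG in 9 (13.0%), CAGATG in 4 (14.4%), TGACG in 6 (17.8%) and GGACAG, part of the element bound by the repressor Rest, in 1 (18.7%). Among these windows, 1 pair of matches of different motifs overlapped, and 10 pairs of matches of the same motif did. These matches describe the letters and identify no bound site.

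The spread over the regions was taken as the range of a gene, its highest minus its lowest level. It had a median of 0.97 log2 units over the 20 genes above the floor and 0.39 over all 10908, and with no floor 0.80 over the 28 and 0.32 over all 19938. It reached 1 log2 unit for 9 of the 20, against 15.0% of all compared genes. Over all 28 genes with no floor it did so for the same 9, against 9.33% of 19938 genes. By class, 1 of 5 sodium channel alpha genes above the floor reached it, 0 of 2 sodium channel beta genes, 4 of 8 calcium channel alpha1 genes, 3 of 3 alpha2delta genes and 1 of 2 calcium channel beta genes. Just inside were Cacnb4 at 1.03 and Cacna1i at 1.05, and just outside were Scn2a at 0.98, and Scn1a and Scn3a at 0.96 each.

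**Figure D2:**
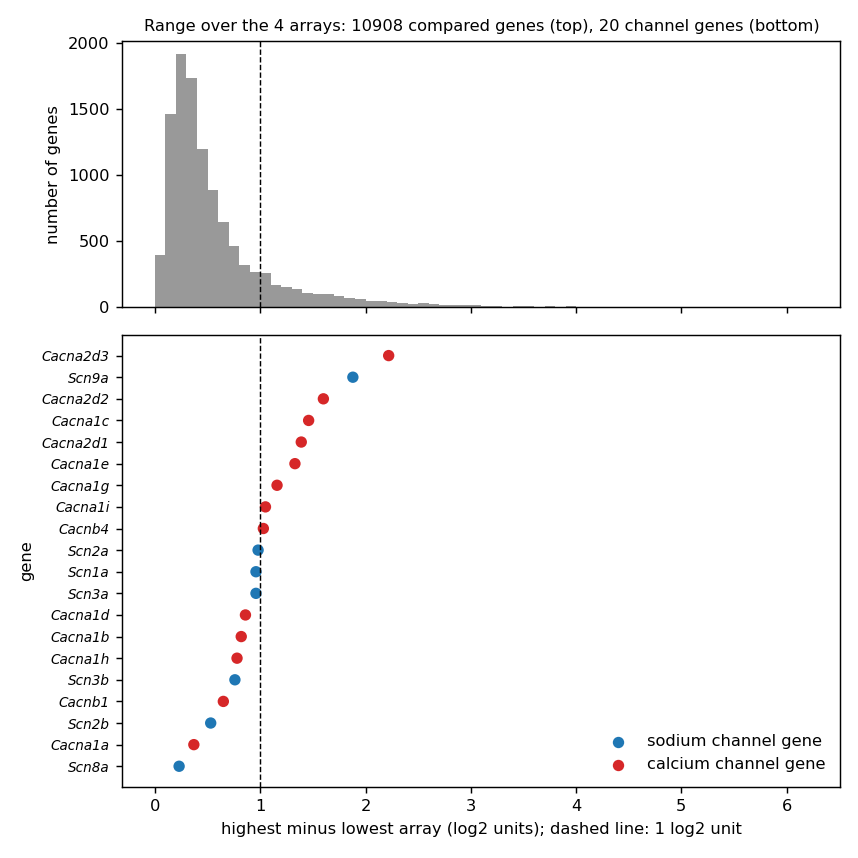
The upper panel counts the 10908 compared genes by their range over the 4 arrays in log2 units, and the lower panel places the 20 channel genes above the floor on the same axis. The dashed line is 1 log2 unit: 9 channel genes lie beyond it, from Cacnb4 at 1.03 to Cacna2d3 at 2.22.

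Among the sodium channel alpha genes, Scn9a stood apart. It encodes Nav1.7, best known from pain-sensing neurons, and read 9.28 in cerebellum, 8.82 in olfactory bulb, 10.70 in pontine nucleus and 9.53 in superior colliculus. The pontine level lay 1.17 log2 units above the next region and 1.88 (3.68-fold) above the bulb. It was the only 1 of the 20 genes called higher in the pontine nucleus, against 0.798% of all compared genes. The 2 probe sets of Scn9a gave the same picture: the other read 8.23, 7.74, 9.91 and 8.40 in the same order, so the pontine nucleus was highest and the bulb lowest on both. Of 5 measured sensory neuron markers, 0 exceeded the floor, and their summed linear signal was 992 in the pontine nucleus against 1089, 1107 and 944 in the cerebellum, bulb and colliculus. Of the 5, 3 were highest in the cerebellum, 1 in the bulb and 1 in the pontine nucleus. Such low signals are no measure of absence, and a part of sensory neurons in the Scn9a level was not tested.

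Scn2a, Scn3a and the beta subunit gene Scn3b shared 1 order of regions. Scn2a encodes Nav1.2, a main channel of immature axons, and read 11.64 in cerebellum, 12.22 in olfactory bulb, 12.42 in pontine nucleus and 12.62 in superior colliculus. Scn3a encodes Nav1.3, the channel typical of the embryonic brain, and read 9.51, 9.89, 10.30 and 10.47. Scn3b, a partner subunit, read 11.81, 12.22, 12.48 and 12.57. In each of the 3 the cerebellum was lowest and the pontine nucleus and the colliculus lay within 0.20 of each other. Cacnb1 (10.56, 10.81, 11.04 and 11.21) and Cacna1h (9.71, 9.74, 10.30 and 10.49) had this order too. In all, 5 of the 20 genes did, against 5.83% of all compared genes, and with no floor 5 of 28, against 3.83%. This order was picked from all possible orders after the values were seen. The shares beside the counts are therefore a description and no test. The cerebellum and the bulb were only 0.03 apart for Cacna1h, and with quantile normalization of the arrays that gene left the group.

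Scn2a has 14 probe sets with a single gene name, which allows a repeat of the measurement along the gene on the same 4 RNA pools. All 14 were lowest in the cerebellum. The colliculus was highest on 12 of them and the pontine nucleus on the other 2. The difference between the colliculus and the cerebellum ran from 0.75 to 1.55 log2 units with a median of 1.12, and reached 1 log2 unit on 12 probe sets, while the probe set with the highest mean, used for the gene, gave 0.98. As the mean of its probe sets Scn2a had a range of 1.15 and would pass the pair rule. The probe sets share the arrays and the RNA, so they say nothing of differences between pools.

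**Figure D3:**
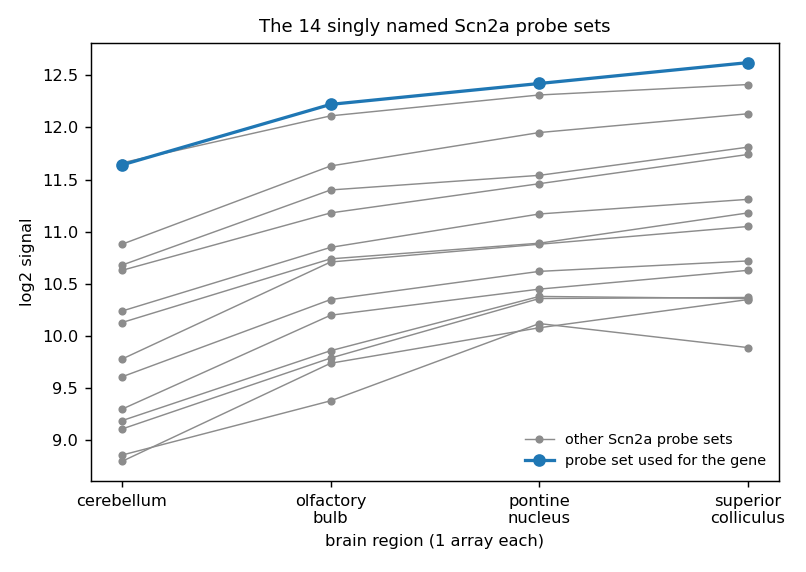
Each line is 1 of the 14 Scn2a probe sets, with its log2 signal in the 4 regions (1 array each). The blue line is the set with the highest mean, from 11.64 in cerebellum to 12.62 in superior colliculus; all 14 lines start lowest in the cerebellum.

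Scn1a and Scn8a, whose channels Nav1.1 and Nav1.6 take over in the mature brain, went separate ways. Scn1a read 8.33 in cerebellum, 8.38 in bulb, 8.33 in pontine nucleus and 9.29 in superior colliculus, a gap of 0.91 between the colliculus and the next region, which is just short of the size rule. Because Scn1a exceeded the floor through the colliculus array only, that gap partly decided whether it was compared at all. Scn8a read 10.10, 9.91, 9.87 and 9.87, a range of 0.23, narrower than in any other channel gene above the floor. It was also the only 1 of the 20 genes that was highest in the cerebellum, against 17.9% of all compared genes, by 0.19. The beta subunit gene Scn2b resembled Scn1a, with 8.98 in colliculus against 8.45 to 8.49 elsewhere, and likewise exceeded the floor there only.

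The 3 alpha2delta genes above the floor were highest in 3 different regions. Cacna2d3 read 9.12 in cerebellum, 10.15 in olfactory bulb, 7.93 in pontine nucleus and 10.13 in superior colliculus. It was the only channel gene called lower in the pontine nucleus, against 0.981% of all compared genes, at 1.19 log2 units below the cerebellum, the next lowest, and 2.22 (4.66-fold) below the bulb. Its bulb and colliculus levels were 0.02 apart. Cacna2d1, which encodes a subunit found in brain and muscle, had the pontine nucleus highest: it read 10.75, 11.60, 12.14 and 11.71, and its other probe set 10.16, 10.97, 11.50 and 10.88. Cacna2d2, a gene known for its role in Purkinje cells, read 10.95, 9.82, 10.46 and 11.42, so that it was lowest in the bulb, where Cacna2d3 was highest. In the pontine nucleus Cacna2d1 was at its highest while Cacna2d3 was at its lowest. The upstream windows of these 3 genes are printed above, and a relation of their content to these levels was not tested.

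**Figure D4:**
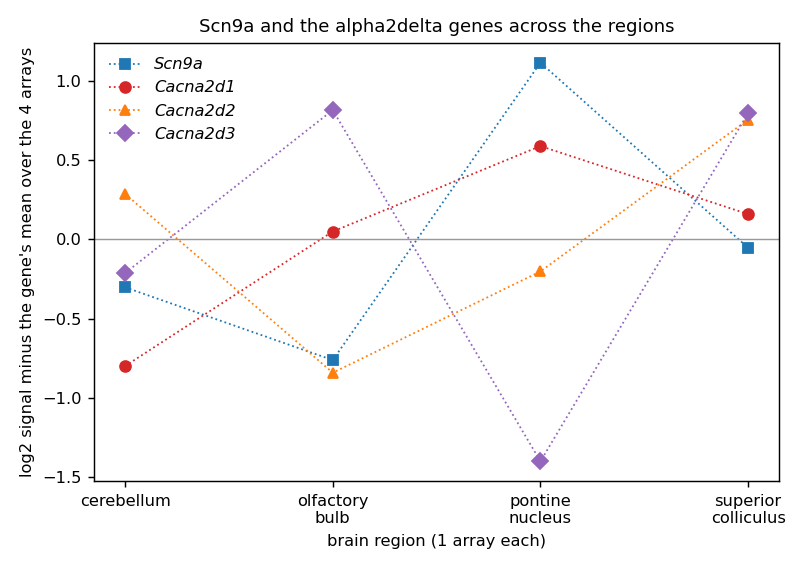
Points give the log2 signal of Scn9a, Cacna2d1, Cacna2d2 and Cacna2d3 minus the gene's own mean, in the 4 regions with 1 array each; dotted lines only join the points of a gene. In the pontine nucleus Scn9a (10.70) and Cacna2d1 (12.14) are at their highest and Cacna2d3 (7.93) is at its lowest.

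Of the pore genes of calcium channels, the L-type gene Cacna1c had the widest range. It encodes Cav1.2 and read 9.90 in cerebellum, 10.87 in bulb, 11.36 in pontine nucleus and 10.58 in superior colliculus, 1.46 log2 units (2.75-fold) between the pontine nucleus and the cerebellum. The other L-type gene above the floor, Cacna1d (Cav1.3), read 9.46, 10.06, 9.74 and 10.32, with the colliculus highest and no pair past the rule. Both were lowest in the cerebellum.

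The genes of the channels of transmitter release differed in spread. Cacna1a, which encodes the P/Q-type pore and is mutated in several ataxic mouse lines, read 10.60, 10.79, 10.97 and 10.92 in cerebellum, bulb, pontine nucleus and colliculus, a range of 0.37. The N-type gene Cacna1b read 11.06, 10.82, 11.64 and 11.45, with a range of 0.82. The R-type gene Cacna1e read 10.45, 11.78, 11.22 and 11.15 and was highest in the bulb, 1.33 log2 units (2.51-fold) above the cerebellum. Thus Cacna1b was lowest in the bulb, where Cacna1e was highest.

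T-type channel genes read 0.36 (Cacna1g), 0.78 (Cacna1h) and 1.05 (Cacna1i) log2 units higher in the colliculus than in the cerebellum, of which only the last reached the size rule. Cacna1g, encoding Cav3.1, read 10.88 in cerebellum, 10.23 in bulb, 11.39 in pontine nucleus and 11.24 in colliculus, and the bulb lay at least 1 log2 unit below both of the last regions. Cacna1i, encoding Cav3.3, read 8.87, 9.53, 9.04 and 9.92, and the colliculus exceeded the cerebellum by 1.05. Cacna1h, given above, had its higher levels in the pontine nucleus and the colliculus and no pair past the rule.

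The calcium channel beta genes above the floor were Cacnb1 and Cacnb4. Cacnb4, whose loss causes ataxia and seizures in lethargic mice, read 10.04 in cerebellum, 11.07 in bulb, 10.38 in pontine nucleus and 10.77 in colliculus. The bulb exceeded the cerebellum by 1.03, and by less than 1 with quantile normalization, where the range was 0.99. Cacnb1 had no pair past the rule.

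Set against each other in pairs, the regions gave 17 calls of 1 log2 unit or more, on 9 genes. The 6 pairs share arrays, so they are not independent. The cerebellum was the lower region in 8 calls and the higher region in 2. Relative to the cerebellum, 3 genes were higher in the bulb (Cacna1e, Cacna2d3 and Cacnb4; 2.46% of compared genes), 3 in the pontine nucleus (Scn9a, Cacna1c and Cacna2d1; 1.88%) and 2 in the colliculus (Cacna1i and Cacna2d3; 2.63%). Cacna2d2 was higher in the cerebellum than in the bulb (2.06%), and Cacna2d3 higher in the cerebellum than in the pontine nucleus (4.49%). Relative to the bulb, Scn9a and Cacna1g were higher in the pontine nucleus (2.57%), and Cacna1g and Cacna2d2 in the colliculus (2.73%). Cacna2d3 was higher in the bulb (5.20%) and in the colliculus (4.12%) than in the pontine nucleus, and Scn9a higher in the pontine nucleus than in the colliculus (1.72%). No channel gene was called higher in the cerebellum (3.08%) or the bulb (2.94%) than in the colliculus. Only Scn9a and Cacna2d3, 2 of the 20, were set apart from all 3 other regions, against 4.58% of compared genes set apart in any region. None was in the cerebellum, bulb or colliculus, where 0.605%, 0.972% and 0.715% of compared genes were called higher and 0.156%, 0.431% and 0.165% lower.

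**Figure D5:**
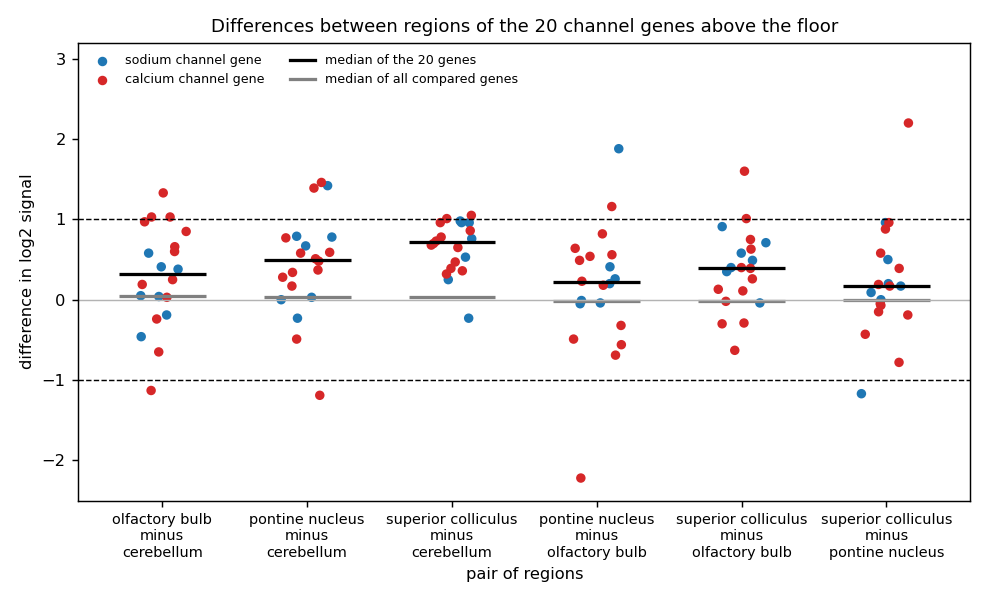
Each point is 1 of the 20 channel genes above the floor, placed by the difference in log2 signal between the 2 regions named below it; blue is sodium and red is calcium. Black bars are medians of the 20 genes and grey bars medians of all 10908 compared genes; for the superior colliculus minus the cerebellum these are 0.715 and 0.040, and only Scn8a lies below 0.

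Smaller differences had a common side. A region is counted here as lowest or highest for a gene only where no other region has the same level, for channel genes and for all genes alike. The cerebellum was the lowest region for 13 of the 20 genes, against 30.9% of all compared genes, and the colliculus for 0, against 22.4%. Scn8a, tied at 9.87 in pontine nucleus and colliculus, and Scn1a, tied at 8.33 in cerebellum and pontine nucleus, were counted for no lowest region. With no floor these counts were 15 of 28, against 21.5%, and 0 of 28, against 21.7%, and Cacna2d4, tied at 7.54 in pontine nucleus and colliculus, was left out as well. The colliculus was highest for 10 of the 20, against 24.0%, and for 11 of 28 with no floor, against 21.1%; Scn1a and Scn2b are among the 10 and passed the floor through that array alone. Comparing the colliculus with the cerebellum at any size, 19 of 20 genes were higher in the colliculus, against 56.0% of compared genes, and with no floor 22 of 28, against 45.6% of all genes. The exception above the floor was Scn8a. This pair was picked after the values were seen, and its share of the 20 genes was the highest of the 6 pairs. Among the companion genes described below, 30 of the 34 above the floor were also higher in the colliculus, and with no floor 32 of 43. This side was therefore not particular to the channel genes. Over the 13 calcium channel genes the difference ran from 0.32 to 1.05, with a median of 0.70, and over the 7 sodium channel genes from -0.23 to 0.98, with a median of 0.76; over all compared genes the median was 0.04. In the other pairs at any size, the bulb exceeded the cerebellum for 15 of the 20 (58.8% of compared genes) and the pontine nucleus did for 16 (54.7%). The colliculus exceeded the bulb for 15 (46.1%) and the pontine nucleus for 12 (48.9%), and the pontine nucleus exceeded the bulb for 12 (46.3%). The pontine nucleus was highest for 6 of the 20 (28.4%) and lowest for 1 (26.0%), and the bulb was highest for 3 (27.2%) and lowest for 4 (17.7%). With no floor, 5 of the 28 were highest in the cerebellum (28.7%), 6 in the bulb (24.3%) and 6 in the pontine nucleus (22.6%), and 4 were lowest in the bulb (20.5%) and 6 in the pontine nucleus (32.7%).

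Marker genes of cell division, of astrocytes and radial glia, and of neuronal maturation also differed across the regions. Of 11 measured cell division genes, all 11 were highest in the cerebellum and all 11 lowest in the colliculus, and their summed linear signal was 23642, 17382, 8611 and 6998 in the cerebellum, bulb, pontine nucleus and colliculus. Of 6 astrocyte and radial glia genes, 4 were highest in the cerebellum and 0 in the colliculus. Gfap, 1 of the 4, did not exceed the floor in any region. Nes was highest in the bulb (10.89 against 10.88 in cerebellum) and Aqp4 in the pontine nucleus (10.68 against 9.09 in cerebellum). Bulb, pontine nucleus and colliculus each had the lowest level for 2 genes. The summed linear signal of the 6 was 27333, 24936, 22990 and 21135. Fabp7, with the highest signals of the 6 and so the largest weight in this sum, read 14.03, 13.97, 14.00 and 13.93. Of 12 neuronal maturation genes, 6 were lowest in the cerebellum, 4 in the bulb, 1 in the colliculus and 1 in the pontine nucleus. Of the same 12, 2 were highest in the cerebellum (Nefl and Nefm). The summed linear signal of the 12 was 42958, 48102, 51274 and 49510. Other lists differed too. All 6 genes of meninges and fibroblasts were highest in the bulb, Foxc1 in a tie with the colliculus at 7.44, and 3 exceeded the floor. Their summed linear signal was 1378, 3113, 1232 and 1527. Of 6 measured oligodendrocyte lineage genes, 5 were lowest in the bulb. Of 7 skeletal muscle genes, 5 were highest in the cerebellum, but only 1 of the 7 exceeded the floor. The part of these lists in the channel gene levels was not tested. In pooled tissue, fewer neurons and less channel RNA per neuron cannot be told apart.

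Proteins that bind or place these channels were covered by a list of 46 companion genes, of which 43 were measured and 34 exceeded the floor. Of these 34, 8 differed by at least 1 log2 unit in some pair, against 15.0% of all compared genes. With no floor 9 of 43 did, against 9.33% of all genes. Of the 8, Stac exceeded the floor in the bulb only and Rem2 in the colliculus only, where each was highest. The 8 were Cacng3, Cacng5, Fgf11, Fgf12, Fgf13, Stac, Rem2 and Rimbp2. None of the 5 genes of axon initial segment anchors, the 4 of the sodium leak channel complex or the 5 of other channel regulators above the floor did. Of the 6 active zone scaffold genes, Rimbp2 alone did.

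Of the 4 genes of fibroblast growth factor homologous factors, which bind the tail of sodium channels, 3 passed the pair rule. Fgf11 read 9.64 in cerebellum, 9.92 in bulb, 7.92 in pontine nucleus and 9.83 in colliculus and was called lower in the pontine nucleus, by 1.72. Fgf12 was highest in the bulb, at 11.43 against 10.18, 10.07 and 10.57 in cerebellum, pontine nucleus and colliculus. Fgf13 was higher in the pontine nucleus than in the cerebellum, at 11.23 against 10.22, and this difference fell short of 1 with quantile normalization. Among genes of the gamma subunit family, most of which act on AMPA receptors, Cacng3 read 9.32, 8.66, 7.90 and 10.85 and was called higher in the colliculus, by 1.53. Cacng5 read 9.84, 10.75, 7.85 and 9.20 and was called lower in the pontine nucleus, by 1.35. Stac, an adaptor of L-type channels, read 8.37, 9.30, 7.41 and 8.55. Rem2, a GTPase that inhibits calcium channels, read 7.96, 7.91, 8.36 and 9.20. Of the 34 companion genes above the floor, 11 were lowest in the pontine nucleus, among them Cacng3, Cacng5, Fgf11, Fgf12, Stac and Rimbp2, which is near the 26.0% of all compared genes.

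Rest, a repressor of neuronal genes whose targets include Scn2a, was highest where Scn2a was lowest, at 8.92 in cerebellum against 8.43, 8.23 and 8.64 in bulb, pontine nucleus and colliculus, a range of 0.69. Its bulb and pontine levels lay below the floor of 8.56, and it had no pair past the rule. The order of its other 3 regions was not the reverse of the order of Scn2a. Of these 3, Rest was highest in the colliculus, where Scn2a was highest too, at 12.62. Rest was picked after its values were seen, and a relation of its level to that of Scn2a was not tested.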

How the data were processed

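Per the labels, total RNA was extracted with Trizol and RNeasy columns, made into sense-strand cDNA and biotin-labelled for Affymetrix arrays. The submitters' processing notes name Affymetrix Expression Console; the sources used here give no version, summarisation method or genome build. The deposited table has 1 value for each probe set on each array, rounded to 2 decimals; that these are log2 signals scaled between arrays by the authors was inferred from the values. Such scaling can remove general differences between regions.

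From these values, genes were named through the 2016 array annotation: 21789 of 35556 probe sets had 1 symbol, and the 1621 with several were left out. All 28 member genes matched RefSeq by Entrez ID. The probe set with the highest mean stood for a gene, which affects 3 member genes. The floor, the size rules and the alternatives (no floor, the 75th percentile, quantile normalization, probe set means, 2 log2 units, the mean of the other arrays) are given with the results; no test was possible with 1 array per region. All member genes were to be named, and up to 6 companion genes past the pair rule by range. All 8 companion genes past that rule were named instead. Rest and the pairs of neighbouring values were picked after their values were seen, and Tpcn1 was also outside this plan. The members and lists were chosen with earlier results of these data known. The calling of genes by size was run on simulated data with noise of an assumed size. This checks the calculation only, because the true error is unknown with 1 array per region. Counts of lowest and highest regions, of the shared order of regions and of genes higher in the colliculus than in the cerebellum were added after seeing the data. Python 3.11.15, NumPy 2.4.6, pandas 2.3.3 and Matplotlib 3.10.9 were used.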

Additional observations from a re-analysis of the deposited data

How the results depend on the processing

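No paired analysis was possible because each region has 1 array. A rule of 2 log2 units left 0 channel genes set apart in the pontine nucleus in either direction, and only Cacna2d3 past the rule in pairs, in the bulb and in the colliculus against the pontine nucleus. Companion genes then numbered 0 higher in the bulb, pontine nucleus or colliculus than in the cerebellum, 0 in the cerebellum than in the pontine nucleus and 0 in the bulb than in the colliculus. They numbered 1 in the colliculus than in the bulb, 2 in the bulb than in the pontine nucleus and 1 in the colliculus than in the pontine nucleus. Against the mean of the other arrays, 2 channel genes were lower in the cerebellum (Cacna1c and Cacna2d1), 1 was higher in the bulb (Cacna2d3), 2 were lower there (Cacna2d2 and Scn9a) and 2 were higher in the colliculus (Cacna2d2 and Cacna2d3). With quantile normalization 1 channel gene was higher in the colliculus than in the cerebellum (Cacna1i), 0 companion genes were higher in the pontine nucleus than in the cerebellum, and 2 channel genes were lowest in the pontine nucleus (Cacna2d3 and Scn8a). With the floor at the 75th percentile, which 17 channel genes exceeded, 1 channel gene was higher in the colliculus than in the cerebellum (Cacna2d3), and companion genes numbered 1 in the colliculus over the bulb, 2 in the bulb over the pontine nucleus and 3 in the colliculus over the pontine nucleus. With no floor, Gem raised the companion genes higher in the bulb to 2 against the cerebellum and 2 against the colliculus, and the channel genes highest in the cerebellum, highest in the bulb and lowest in the pontine nucleus numbered 5, 6 and 6. The cause of these changes was not tested beyond what each setting alters. Scn9a and Cacna2d3 stayed set apart in the pontine nucleus under every alternative other than the rule of 2 log2 units. With quantile normalization, probe set means and no floor, 19, 19 and 22 channel genes were higher in the colliculus than in the cerebellum. Signals near the background compress differences, and no value has an error.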

Other observations

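Probe sets that carry several sodium channel names were left out of the gene levels. The one named for Scn1a and Scn3a read 10.06 in cerebellum, 10.32 in olfactory bulb, 10.60 in pontine nucleus and 10.98 in superior colliculus. The one named for Scn3a and Scn9a read 10.29, 10.43, 10.94 and 10.87, and the one named for Scn2a, Scn3a and Scn9a read 8.73, 9.66, 10.49 and 10.17. All 3 were lowest in the cerebellum, as Scn2a and Scn3a were. On the last 2, both of which carry the name of Scn9a, the pontine nucleus was highest.

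Among relatives of the pore subunits outside the rule, the 4 measured Catsper genes, known from sperm, lay below the floor in every region. The two-pore channel gene Tpcn1, whose product sits in endosomes, read 10.16 in cerebellum, 10.04 in bulb, 9.57 in pontine nucleus and 9.24 in colliculus. Its range was 0.92, with no pair past the rule, and it was named outside the plan. It was higher in the cerebellum than in the colliculus. Among genes above the floor, 19 of the 20 channel genes and 30 of the 34 companion genes were higher in the colliculus.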
